A study of Rattus norvegicus with 12 samples.

Results

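Respiratory chain assembly factors are proteins that build complexes I to V of the mitochondrial inner membrane without becoming part of them. They were taken from the table of detected genes by symbol, as the Ndufaf, Sdhaf, Uqcc, Atpaf and numbered Coa families, the Cox genes from Cox10 to Cox20 that encode assembly proteins, and a short list of single names such as Sco1, Ttc19, Bcs1l and Foxred1. This choice by symbol used no measured value itself, but it was made with earlier results of these data known. It gave 42 of 13733 genes, 14 of them for complex I, 3 for complex II, 6 for complex III, 16 for complex IV and 3 for complex V. Surf1, Sco2 and Pet117, which the choice also names, were not analysed here.

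Total RNA was sequenced from dispersed pancreatic islet cells of Wistar rats, adult at 3 months per the labels and male per the study, 72 h after lipid-mediated transfection. The anti-mt-tRF-LeuTAA group received 30 pmol of a single-stranded antisense oligonucleotide complementary to mt-tRF-LeuTAA, a small RNA cut from a leucine tRNA of the mitochondrial genome, and the anti-control group received a scrambled oligonucleotide (n = 6 libraries per group). Per the study each N stands for the islets of one animal, so that a rat gave 1 library to each group. The preparation is a mixture of islet cell types, and a lower level in such bulk RNA can be fewer cells of a type or less RNA per cell, which cannot be told apart. The fragment itself is a small RNA, and its level was not analysed here.

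The respiratory chain passes electrons from NADH through complex I, or from succinate through complex II, to complexes III and IV, and the proton gradient built on the way drives ATP synthesis by complex V. In β-cells the ATP made from glucose closes potassium channels and so starts insulin release. Complexes I, III, IV and V combine subunits made inside the mitochondrion with subunits imported from the cytosol, and assembly factors insert metals, flavin and heme, hold half-built modules and steer the order of joining. Inherited defects of many of them cause isolated deficiency of a single complex in humans.

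In these cells the assembly factors had no common direction upon mt-tRF-LeuTAA inhibition. Of the 42 genes, 2 rose (Cox18 and Foxred1) and 2 fell (Ttc19 and Ndufaf3) at an adjusted p of at most 0.05 (limma, two-sided, Benjamini-Hochberg adjustment over all genes). Each is 4.76% of the assembly factors, beside a background of 10.9% of all genes that rose and 4.65% that fell. The replicate numbers pair the libraries by rat, and these counts leave the pairing out. With the rat as a block, which allows for it, Sco1 and Ndufaf4 also rose and Coa3, Ndufaf7 and Sdhaf4 also fell. That made 4 higher (9.52%) and 5 lower (11.9%), against 17.6% and 17.7% of all genes in the same fit. The paired design thus gave 9 calls among the 42. Cox18, Foxred1, Sco1 and Ttc19 kept theirs in this fit without each rat in turn, and the others did not. The numbers of all genes called in each direction with the block equal those that the study lists. Without rats 1 and 2, whose libraries deviated together in both groups, the fit without the block called 4 higher (Cox18, Foxred1, Ndufaf4 and Cox10) and 1 lower (Ttc19), and the fit with it 6 higher (those 4, Sco1 and Atpaf1) and again Ttc19 alone as lower.

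The median log2 fold change, given throughout as anti-mt-tRF-LeuTAA minus anti-control, was −0.03 over the assembly factors and −0.04 over all genes, with 18 positive and 24 negative values. All 42 lay between −0.49 and 0.74 on the log2 scale, and 0 reached 2-fold. The 95% confidence interval of the difference stayed within 2-fold in either direction for 41 of the 42, the exception being the scarce Nubpl, and within 1.5-fold for 30 (35 with the block). The SD over rats had a median of 0.17 in the control and 0.16 in the silenced libraries on the log2 scale, and the differences within a rat had a median SD of 0.20. Within rats, 6 assembly factors were higher in 6 of 6 (14.3%, against 17.3% of all genes) and 8 were lower in 6 of 6 (19%, against 16.6%).

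**Figure D1:**
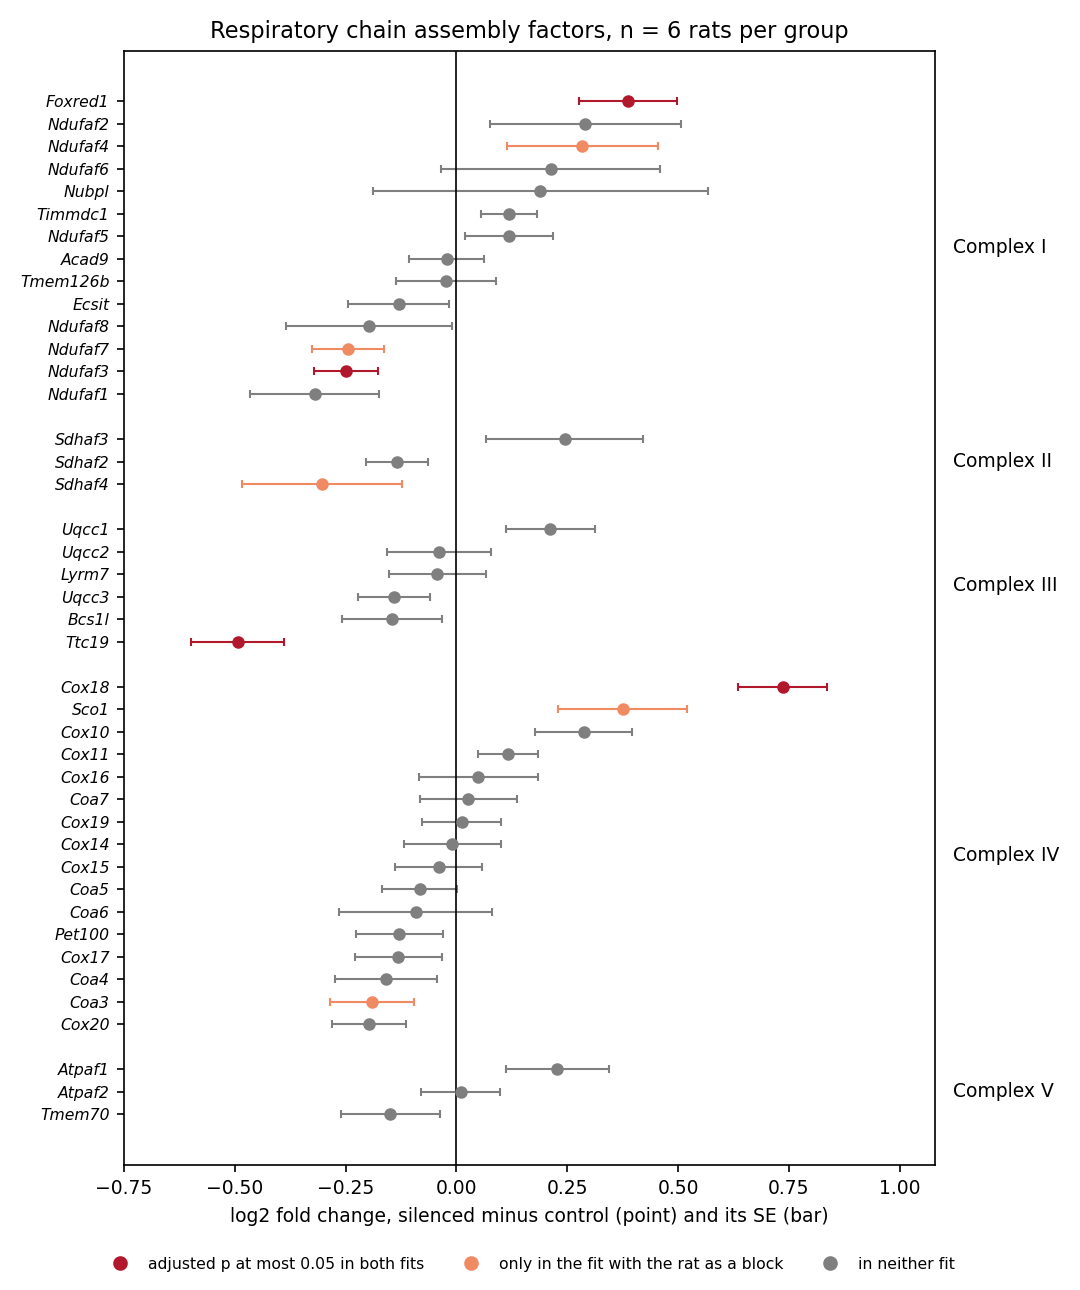
Log2 fold change (horizontal axis, anti-mt-tRF-LeuTAA minus anti-control) of the 42 assembly factors, grouped by complex and sorted within it. Points are the fitted differences and bars their SE in the fit without the block, with the same 6 rats in both groups. Colours mark the fits in which the adjusted p was at most 0.05. Cox18 stands at 0.74, the highest, and Ttc19 at −0.49, the lowest.

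Cox18, an inner membrane protein that moves the C-terminal tail of the subunit Cox2 across the membrane, showed the clearest rise. Its gene lies on chromosome 14 from 19434753 to 19446376 (Rnor_6.0, plus strand). Log2 CPM, the log2 of reads scaled to library size, was 3.81, 3.54, 3.37, 3.66, 3.92 and 3.78 in the control libraries of rats 1 to 6 and 4.45, 4.37, 4.30, 4.51, 4.33 and 4.51 in the silenced libraries. The groups did not overlap, and every silenced library lay above every control library (178 to 334 reads per control library, 358 to 467 per silenced library). Cox18 was among 7.92% of all genes that were higher without overlap. The difference was 0.74 on the log2 scale (SE 0.10, 1.67-fold, adjusted p = 0.000186 by limma). Leaving out each of the 12 libraries in turn moved it between 0.67 and 0.78, with an adjusted p of at most 0.000813.

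Ttc19, which clears cleaved fragments of the Rieske iron-sulfur protein from complex III, showed the largest fall. The gene lies on chromosome 10 from 48599321 to 48627374 (Rnor_6.0, plus strand). Its log2 CPM was 4.47, 4.62, 4.63, 4.65, 4.72 and 4.66 in the control libraries and 3.85, 3.84, 4.36, 4.29, 4.28 and 4.16 in the silenced libraries of rats 1 to 6. No silenced library reached the lowest control library, and rats 1 and 2 were the lowest of the silenced group. Ttc19 fell by 0.49 on the log2 scale (SE 0.10, adjusted p = 0.00578 by limma), and its level in the silenced group was 0.710 times that of the control. Ttc19 and Ndufaf3 were the 2 assembly factors that were lower without overlap, as were 2.27% of all genes. The call for Ttc19 held without each library in turn (adjusted p at most 0.0156).

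Foxred1, a flavin-containing oxidoreductase needed at the middle to late steps of complex I assembly, rose less and less evenly. Its gene lies on chromosome 8 from 36403493 to 36410612 (Rnor_6.0, minus strand). The control libraries of rats 1 to 6 held 4.49, 4.26, 3.96, 3.88, 4.08 and 3.99 log2 CPM and the silenced libraries 4.62, 4.60, 4.41, 4.60, 4.32 and 4.43. The groups overlapped, since the control library of rat 1 lay above 3 silenced libraries, but each rat was higher after silencing. The difference was 0.39 on the log2 scale (SE 0.11, 1.31-fold, adjusted p = 0.0320 by limma and 0.00772 with the rat as a block). The call was lost without control replicate 3, 4, 5 or 6 or silenced replicate 1, 2 or 4, where the adjusted p was 0.0613 to 0.0726 and the difference 0.34 to 0.38. With the block it held without each rat in turn.

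Ndufaf3, which works with Ndufaf4 on the quinone-binding module of complex I, fell by 0.25 on the log2 scale (SE 0.07, adjusted p = 0.0343 by limma). The gene lies on chromosome 8 from 117351629 to 117353672 (Rnor_6.0, minus strand). Its log2 CPM was 4.54, 4.59, 4.45, 4.64, 4.51 and 4.58 in the control libraries and 4.21, 4.33, 4.42, 4.13, 4.42 and 4.30 in the silenced libraries of rats 1 to 6. The groups lay close together without overlap. This call rested on a small margin, since it was lost without control replicate 1, 2, 4, 5 or 6 or silenced replicate 1, 2, 4 or 6 (adjusted p 0.0531 to 0.0778, difference −0.26 to −0.21), and also with libraries scaled to their total reads alone (−0.18, adjusted p = 0.169). With the block the adjusted p was 0.0330, and it was 0.0572 to 0.0989 without rat 1, 2, 4 or 6.

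**Figure D2:**
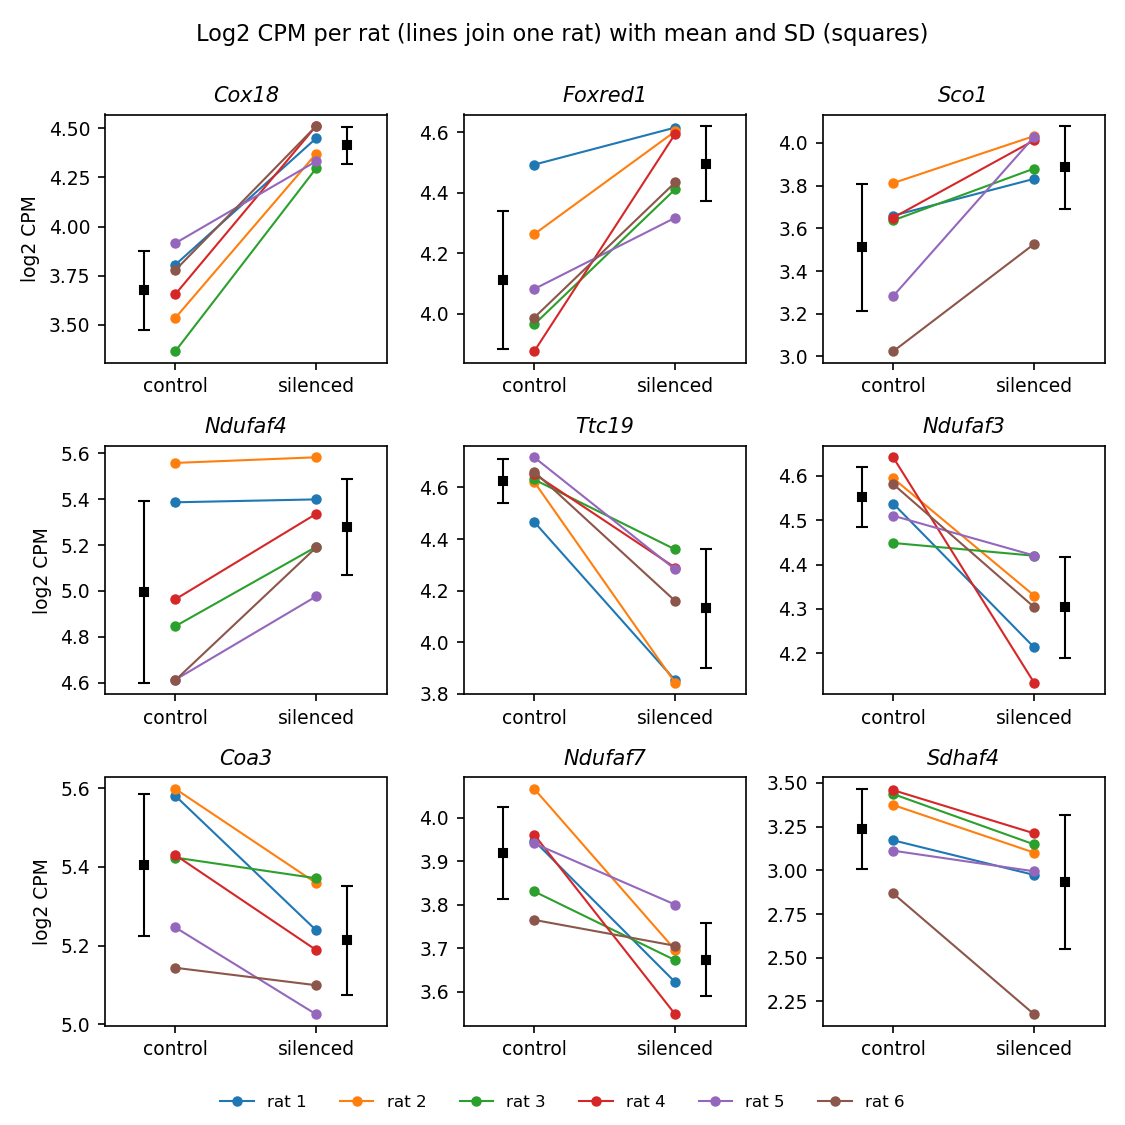
Log2 CPM (vertical axis, scaled for each gene) of the 9 assembly factors called in at least one fit, in the control and the silenced library of each rat. Lines join the libraries of a rat and squares with bars give the mean and SD (n = 6). Cox18, Foxred1, Sco1 and Ndufaf4 run upward and the other 5 downward in every rat.

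The promoter sequences of Cox18, Ndufaf4 and Ndufaf5 are shown because they were the only ones among the assembly factors to hold the palindromic motif of NRF1 (nuclear respiratory factor 1, the 10 letters in capitals below), an activator of many respiratory chain genes. The window searched ran from 250 bases before to 50 bases after the gene start in RefSeq (build GRCr8), which gave a window for 39 of the 42 genes (none for Coa5, Ndufaf6 and Tmem70). Each sequence below is printed 5′ to 3′ on the strand of the gene, with the motif in capitals. The stretches lie at chr14:18149961-18150020 (plus strand), chr5:43401612-43401671 (plus strand) and chr3:147961572-147961631 (plus strand) of GRCr8.
Cox18: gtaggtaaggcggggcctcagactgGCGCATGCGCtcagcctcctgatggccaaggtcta
Ndufaf4: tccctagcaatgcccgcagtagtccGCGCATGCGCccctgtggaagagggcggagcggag
Ndufaf5: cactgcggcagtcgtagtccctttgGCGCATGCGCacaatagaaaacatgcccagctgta

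The motif began 10 bases before the start of Cox18, 158 bases before that of Ndufaf4 and 15 bases before that of Ndufaf5, and the differences of the 3 genes were 0.74, 0.28 and 0.12 on the log2 scale. Of the 3, Cox18 alone was called without the block, and Ndufaf4 also with it. For Ndufaf5, which hydroxylates the complex I subunit Ndufs7, the adjusted p was 0.487 (0.416 with the block, limma). The 3 matches are 7.69% of the 39 promoters, against 6.06% of 66 promoters of nuclear structural subunits, 1.67% of 11667 promoters of genes in the table and 0.852% of all 33469 RefSeq promoters. The ETS core CCGGAAG, searched on both strands, was in 15 of the 39 (38.5%), among them Sco1, Uqcc1, Ndufaf1 and Cox20, against 27.3% of the subunits, 15.8% of the table and 8.75% of all promoters. Cox18, Foxred1, Ttc19 and Ndufaf3 had no ETS match in this window. The YY1 motif, on either strand, was in 3 (7.69%: Cox10, Ndufaf8 and Atpaf2), against 10.6%, 1.69% and 0.675%. The ERR motif TCAAGGTCA was in 0 of 39, against 3.03% of the subunits and 0.433% of all promoters. These are matches of letters, and binding was not measured. The stretch around the start of Cox10 (chr10:49241980-49242022 of GRCr8, minus strand) is printed to show the letters of the YY1 motif, in capitals, which begin 13 bases into the gene.
Cox10: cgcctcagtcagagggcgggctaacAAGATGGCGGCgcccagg

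**Figure D3:**
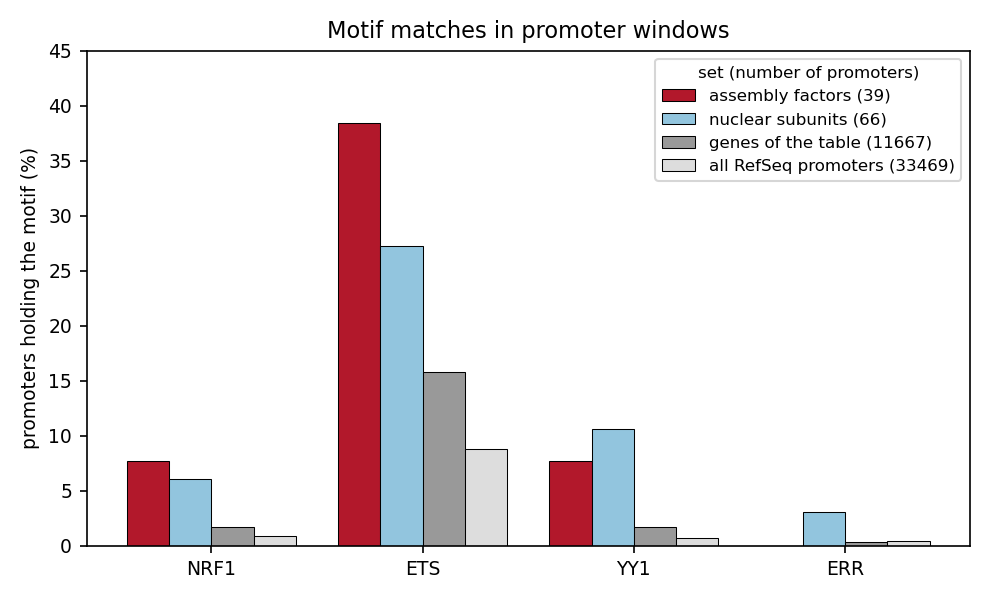
Share of promoter windows (vertical axis, percent) that hold each of 4 motifs on either strand, for 39 assembly factors, 66 nuclear structural subunits, 11667 genes of the table and 33469 RefSeq promoters. The ETS bar is the tallest in each set, at 38.5% for the assembly factors.

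Among the 14 complex I factors, 7 differences were positive and 7 negative, from −0.32 to 0.39 with a median of 0.05 on the log2 scale. Ndufaf4, the partner of Ndufaf3, moved the opposite way to it: the control libraries ran from 4.61 to 5.56 log2 CPM (median 4.90) and the silenced ones from 4.98 to 5.58 (median 5.26). The groups overlapped widely, because rats 1 and 2 stood at 5.39 and 5.56 already in the control and at 5.40 and 5.58 after silencing, while each of rats 3 to 6 was higher by 0.35 to 0.58. The difference was 0.28 (SE 0.17, adjusted p = 0.310, limma), and 0.0243 with the rat as a block, which was lost without rat 3, 4, 5 or 6 (0.0622 to 0.0729). Ndufaf7, a methyltransferase needed early in complex I assembly, had 3.77, 3.94 and 4.07 log2 CPM as its lowest, median and highest control values and 3.55, 3.68 and 3.80 after silencing. It was lower in 6 of 6 rats, by 0.24 on the log2 scale (SE 0.08), with an adjusted p of 0.0611 (limma) and of 0.0440 with the block, lost without rat 1, 2, 3, 4 or 5 (0.0665 to 0.121).

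Ndufaf1, a core member of the MCIA complex that builds the membrane arm of complex I around Nd2, had the lowest value for complex I, −0.32 (SE 0.14, adjusted p = 0.169, 0.0775 with the block, limma). Its control libraries ran from 3.29 to 3.83 log2 CPM (median 3.38) and the silenced ones from 2.70 to 3.36 (median 3.22), with rat 2 lowest after silencing. Its MCIA partners Ecsit, Acad9, Tmem126b and Timmdc1 lay at −0.13, −0.02, −0.02 and 0.12, so that the 5 genes of this complex did not share a direction. The quinone-module factors Ndufaf3 to Ndufaf8 ran from −0.25 to 0.28. Ndufaf6 had a low library from rat 2 in both groups, at 1.98 log2 CPM in the control (the others 2.48 to 2.78) and 1.64 after silencing (the others 2.86 to 3.09). Nubpl, which delivers iron-sulfur clusters to complex I, was the scarcest of all 42, with 7 reads in its lowest library, and its difference of 0.19 had a 95% interval from −0.63 to 1.01.

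Complex II, which the study examined by respiration on succinate, has 3 of its assembly factors in the table, and none was called without the block. Sdhaf4, which binds the flavinated subunit Sdha and passes it on to Sdhb, had 3.17, 3.37, 3.44, 3.46, 3.11 and 2.87 log2 CPM in the control libraries and 2.97, 3.10, 3.15, 3.21, 2.99 and 2.18 in the silenced libraries of rats 1 to 6. Each rat was lower after silencing, by 0.12 to 0.69, while the groups overlapped. The difference was −0.30 on the log2 scale (SE 0.18, adjusted p = 0.307 by limma) and the adjusted p 0.0493 with the block. Without rat 6, whose silenced library was the lowest, the blocked difference was −0.22 (adjusted p = 0.129), and the call was also lost without each of the other rats (0.0555 to 0.0939). Sdhaf3, needed for the iron-sulfur clusters of Sdhb, stood at 0.24 (SE 0.18, adjusted p = 0.414) on 44 to 85 reads per library, and Sdhaf2, which attaches the flavin to Sdha, at −0.13 (SE 0.07, adjusted p = 0.229, lower in 5 of 6 rats).

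Of the 6 complex III factors, Ttc19 alone was called. The other 2 that handle the Rieske protein were Bcs1l, which moves it across the inner membrane, at −0.15, and its chaperone Lyrm7 at −0.04. Uqcc1, Uqcc2 and Uqcc3 act on newly made cytochrome b. Uqcc1 was the highest of the complex, with control libraries from 5.08 to 5.60 log2 CPM (median 5.32), silenced libraries from 5.30 to 5.75 (median 5.57) and a difference of 0.21 (SE 0.10, adjusted p = 0.190, 0.0597 with the block, limma). Uqcc2 and Uqcc3 lay at −0.04 and −0.14.

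Complex IV had the most factors, 16, and the widest range, from −0.20 to 0.74, with 7 positive and 9 negative. Copper reaches the enzyme through Cox17, which hands it to Sco1 and Cox11. Sco1, which loads the copper site of Cox2, had control libraries from 3.02 to 3.81 log2 CPM (median 3.64) and silenced libraries from 3.53 to 4.03 (median 3.95). The groups overlapped through the silenced library of rat 6, while all 6 rats were higher after silencing. The difference was 0.37 (SE 0.15, 1.30-fold, adjusted p = 0.107, limma), and 0.0151 with the block, which held without each rat in turn. Cox11 lay at 0.12, higher in 6 of 6 rats, and Cox17 at −0.13, lower in 6 of 6, and neither was called. Cox11 overlaps Tom1l1 and Stxbp4, which lie on the other strand.

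Coa3, which stabilises newly made Cox1, had 5.14, 5.43 and 5.60 log2 CPM as its lowest, median and highest control values and 5.02, 5.21 and 5.37 after silencing. It was lower in 6 of 6 rats, by 0.19 on the log2 scale (SE 0.09, adjusted p = 0.208, limma), and 0.0318 with the block, lost without rat 1, 2, 4 or 5 (0.0669 to 0.0826). Its partner Cox14 lay at −0.01. Cox20, a chaperone of Cox2 that acts beside Cox18, was the lowest of the complex at −0.20 (SE 0.08, adjusted p = 0.138, 0.0644 with the block, limma), lower in 6 of 6 rats, with control libraries from 4.52 to 4.95 log2 CPM (median 4.70) and silenced ones from 4.31 to 4.60 (median 4.53). Cox18, Sco1 and Cox20 all act on the maturing Cox2, and the differences of Cox18 and Sco1 were positive and that of Cox20 negative. The heme A enzymes Cox10 and Cox15 lay at 0.29 (SE 0.11, adjusted p = 0.10, 0.0504 with the block) and −0.04. The remaining 7 (Cox16, Cox19, Coa4, Coa5, Coa6, Coa7 and Pet100) lay between −0.16 and 0.05.

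The 3 complex V factors were not called in either fit on all 12 libraries. Atpaf1, a chaperone of the β-subunit of the catalytic head, had 4.75, 4.78, 4.68, 4.42, 4.62 and 4.85 log2 CPM in the control libraries and 4.69, 4.87, 4.90, 4.63, 5.11 and 5.27 in the silenced libraries of rats 1 to 6. Rats 5 and 6 had the highest silenced libraries, rat 1 was slightly lower after silencing, and the groups overlapped. The difference was 0.23 (SE 0.12, adjusted p = 0.223, 0.0529 with the block, limma). Atpaf2, the chaperone of the α-subunit, lay at 0.01, and Tmem70, which helps to form the ring of c-subunits, at −0.15 (SE 0.11, adjusted p = 0.431), from control libraries of 4.07 to 4.59 (median 4.33) and silenced libraries of 3.84 to 4.37 (median 4.20).

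The structural subunits that these factors assemble were followed by symbol. The nuclear subunits are counted by entry, and Ndufv3, Uqcrb and Cox6b1 each have more than 1. The choice by symbol also took in Atp5if1, an inhibitor of complex V and not a structural part of it. Of the 80 nuclear entries, 1 rose and 1 fell without the block, and 3 rose and 3 fell with it, and their median was −0.02 on the log2 scale. The subunits called without the block were Cox6b2, a testis form of a complex IV subunit that was close to the lowest levels (−2.10 ± 0.88 log2 CPM in the control and 0.14 ± 0.46 after silencing, SD, n = 6, adjusted p = 0.00205 by limma), and Sdhc, a membrane anchor of complex II (6.63 ± 0.08 and 6.44 ± 0.05, −0.19, adjusted p = 0.0254). With the block Cox5a and Cox7a2l2 rose by 0.26 and 0.53 and Ndufb2 and Atp5if1 had differences of −0.24 and −0.27. For complex III, Ttc19 fell while 0 of 10 subunit entries were called in either fit (1 had an unadjusted p under 0.05). None of the 12 mitochondrially encoded subunits followed, which do not include Mt-nd4, was called in either fit. Without the block 0 had an unadjusted p under 0.05, and their median was −0.19.

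A further 22 genes with a role in assembly lie outside the choice by symbol, and 1 rose and 0 fell without the block (4 had an unadjusted p under 0.05). Gfer and Chchd4 form the oxidative relay that folds small cysteine-rich proteins of the intermembrane space, a group to which Cox17, Cox19, Coa4, Coa5 and Coa6 belong. Gfer rose from 3.75 ± 0.47 to 4.56 ± 0.27 log2 CPM (SD, n = 6, difference 0.81, SE 0.21, adjusted p = 0.0179, limma). Chchd4 was at 2.32 ± 0.42 and 2.82 ± 0.41, higher in 6 of 6 rats, by 0.50 (adjusted p = 0.184, 0.0158 with the block). The 5 client genes themselves lay between −0.16 and 0.01. With the block Oxa1l, the general insertase of the inner membrane and a relative of Cox18, fell by 0.23 (adjusted p = 0.0159, 0.0526 without the block), and Higd2a and Tmem223 fell by 0.22 and 0.31 (0.0226 and 0.0373).

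**Figure D4:**
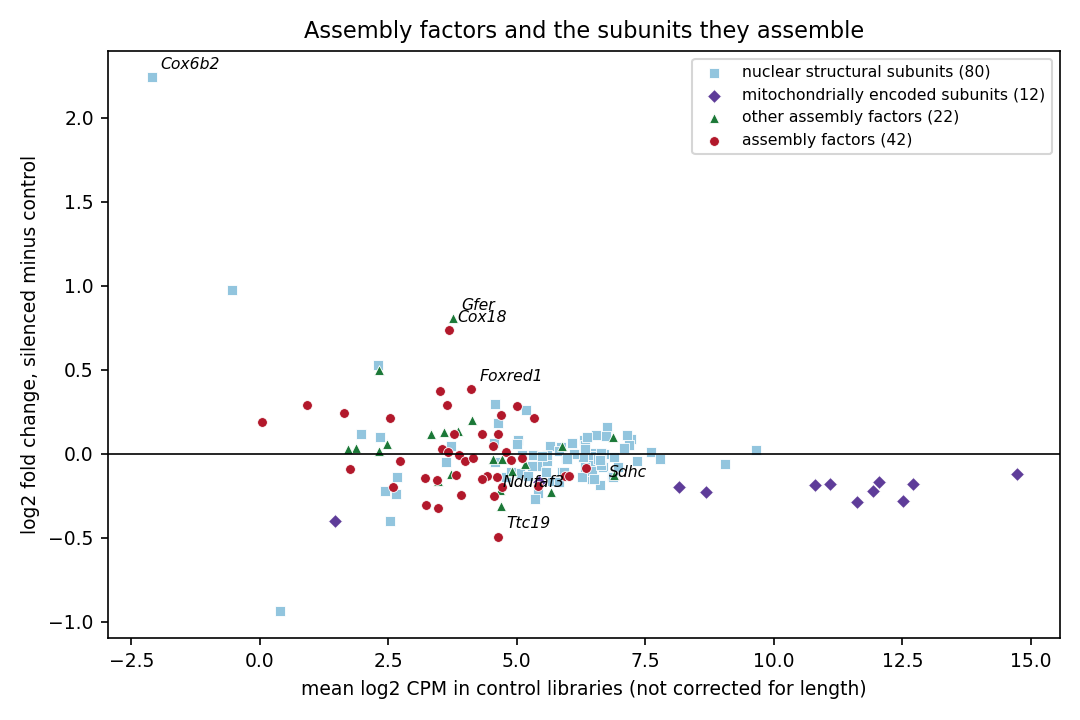
Log2 fold change (vertical axis) against mean log2 CPM in the control libraries (horizontal axis, not corrected for gene length) for the 42 assembly factors, 22 other assembly factors, 80 entries of nuclear subunits and 12 mitochondrially encoded subunits. Genes called without the block are named. Most factors and subunits lie near 0, Cox18 and Gfer stand above at 0.74 and 0.81, and all 12 mitochondrially encoded subunits shown lie below 0.

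Assembly factors lay next to an oppositely oriented gene more often than the genes of the table as a whole. A head-to-head neighbour, on the opposite strand with its start within 1000 bases, was found for 13 of 42 (31.0%), against 8.45% of all genes (Rnor_6.0, genes of the table only, up to 200 bases of overlap allowed). In 8 of the 13 pairs (61.5%) the factor and its neighbour had differences of opposite sign, against 51.5% of the 1160 genes with such a neighbour. Ttc19 starts 113 bases from Zswim7, a DNA repair factor, which rose by 1.24 on the log2 scale (SE 0.29, from 0.26 ± 0.54 to 1.50 ± 0.45 log2 CPM, adjusted p = 0.0104, limma) while Ttc19 fell. Foxred1 starts 71 bases from Srpra, a subunit of the signal recognition particle receptor, which fell by 0.27 (SE 0.08, adjusted p = 0.0349) while Foxred1 rose.

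The stretches from position −100 to position 30 relative to the starts of Ttc19 and Foxred1 are printed to show the letters around these starts. They are from GRCr8 (RefSeq), at chr10:47468943-47469072 (plus strand) and chr8:41817951-41818080 (minus strand), 5′ to 3′ on the strand of the named gene. The distances to the neighbours are from Rnor_6.0, and the starts of the neighbours were not located in GRCr8. Capitals would mark an exact match to any of the 4 motifs, and neither stretch holds one. Each holds letters that differ from the NRF1 motif at a single place (gcgcatgcgg in Ttc19, gcgcattcgc in Foxred1). Such near matches were not counted in any set of promoters.
Ttc19: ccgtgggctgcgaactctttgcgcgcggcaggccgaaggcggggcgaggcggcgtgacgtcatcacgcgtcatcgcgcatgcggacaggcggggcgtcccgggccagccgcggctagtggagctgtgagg
Foxred1: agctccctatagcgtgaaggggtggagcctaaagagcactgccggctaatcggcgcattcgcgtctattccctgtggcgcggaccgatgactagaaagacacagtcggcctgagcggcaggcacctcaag

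Among factors that were not called without the block, the neighbours of Ndufaf7 (Cebpz, 106 bases away), Ndufaf8 (Tepsin, 202 bases), Pet100 (Xab2, 126 bases) and Sdhaf2 (Cpsf7, 756 bases) rose by 0.28, 0.57, 0.34 and 0.22 on the log2 scale, with adjusted p-values of 0.00758, 0.0131, 0.00779 and 0.00233 (limma). Adprm, 27 bases from Sco1, had a difference of 0.23 (adjusted p = 0.397). The remaining head-to-head neighbours, Gid4, Zfp142, Unc50, Cutc, Ercc8 and Esf1, lay between −0.06 and 0.21 and were not called without the block. With the block Zfp142, beside Bcs1l, was called (adjusted p = 0.0379, limma). Of all genes, 15.5% were called in either direction without the block and 35.3% with it. An expressed gene on the same strand that ends within 50 kb upstream was found for 18 of 42 (42.9%, against 40.8% of all genes). For Cox18 this is Ankrd17, which ends 3.24 kb upstream and had a difference of 0.13 (adjusted p = 0.237, 0.0430 with the block). For Ndufaf3 it is Wdr6, 5.12 kb upstream, at −0.45 (adjusted p = 0.168, 0.00704 with the block). For Foxred1 and Ttc19 these are Fam118b and Adora2b, at 0.07 and −0.09 (adjusted p = 0.750 and 0.939, limma). The upstream genes called without the block were Efcab14 (of Atpaf1) and LOC498154 (of Cox19). They fell by 0.52 and 0.60 (adjusted p = 0.00447 and 0.0221, limma), while Atpaf1 and Cox19 lay at 0.23 and 0.01. Cox11 was the only assembly factor to overlap another gene of the table (2.38%, against 8.37% of all genes).

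**Figure D5:**
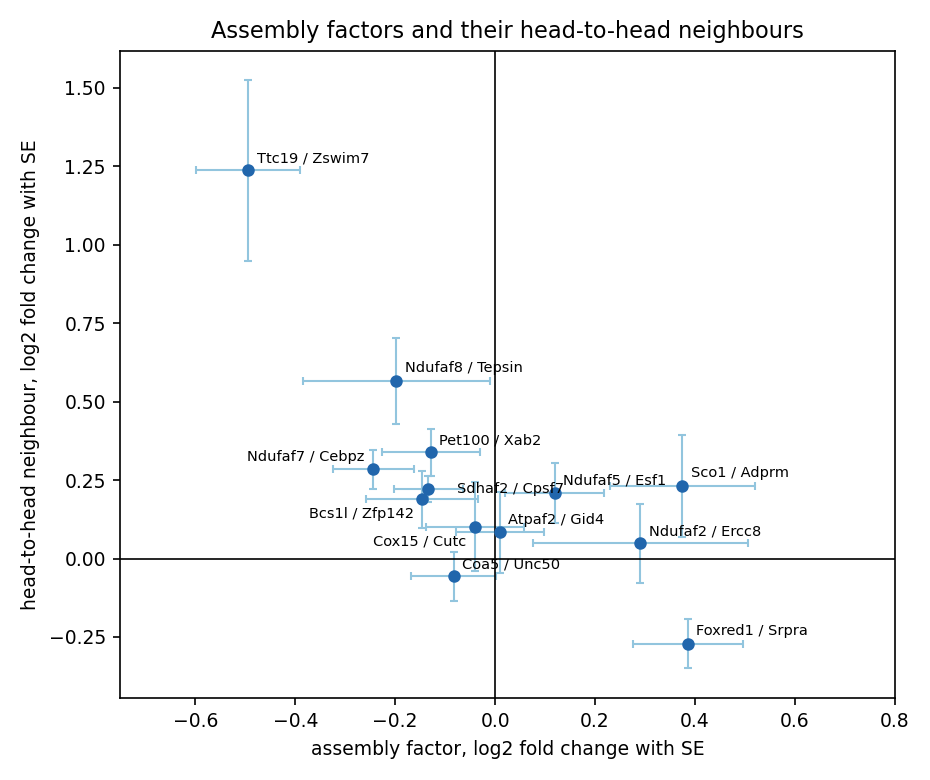
Log2 fold change of 13 assembly factors (horizontal axis) against that of their head-to-head neighbours (vertical axis). Bars are the SE in the fit without the block (n = 6, the same rats in both groups). Ttc19 with Zswim7 lies in the upper left at −0.49 and 1.24, and Foxred1 with Srpra in the lower right at 0.39 and −0.27.

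Facts of all libraries bear on these values in the following ways. The libraries held 16.4 to 23.4 M (mega) reads in the listed genes, and the assembly factors had 7 to 1720 reads per library. Of 7 β-cell markers measured, 1 (Pdx1) was called, as lower, without the block and 2 (Pdx1 and Nkx6-1) with it, the median difference was −0.38 on the log2 scale, and their summed level was 82599 to 163346 CPM in the control and 88822 to 153647 CPM in the silenced libraries. The 7 stroma markers were all negative, 0 called without and 3 with the block, with a summed level of 1515 to 5340 CPM and 692 to 3666 CPM, and the 5 endothelial markers were all positive, 0 called without and 2 with the block (26.5 to 518 and 50.6 to 498 CPM). The 5 duct markers were all negative, 0 called without the block and 1 (Krt7) with it (463 to 811 and 448 to 584 CPM). The 5 acinar markers were all positive, and 1 (Cel) rose in both fits (2.90 to 43.1 and 14.7 to 31.7 CPM). Of the 7 macrophage markers 2 were positive and 5 negative, with a median of −0.21 on the log2 scale, Cd68 rose in both fits and Aif1 fell with the block (34.6 to 131 and 46.1 to 87.3 CPM). No marker was at 0 reads in all control libraries, and the part of these cells in the differences of the assembly factors was not tested. The median difference of the assembly factors within a rat ran from −0.15 (rat 2) to 0.06 (rat 3) on the log2 scale, and 13 to 28 of the 42 were higher after silencing.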

How the data were processed

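Stranded total RNA libraries of 12 islet cell cultures were compared. The authors deposited log2 values, that is, log2 CPM with 1 prior count, for 13733 detected genes. Tools named in the submitters' notes are STAR 2.5.3a, HTSeq 0.9.1, edgeR 3.30.3, limma 3.44.3, cutadapt 1.8 and R 4.0.3, with the build Rnor_6.0. For the role of each, and for the strand setting of the counting: not given in the sources used here. Without that setting, reads of overlapping genes on opposite strands may not be separable. The table's columns of group means, fold changes and p-values, and separate lists of changed genes, hold the authors' own comparison and were not used. The values back-transformed to whole reads (largest deviation 6.0e-08 reads), which gave the depth and served for 1 alternative, limma-voom. Replicates differed by a chi-square per degree of freedom of 18.7 to 254, so no library was a repeat.

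Deposited values of all 12 libraries were fitted with limma 3.58.1 (R 4.3.3), with an intensity trend and no block, and Benjamini-Hochberg adjusted p-values over all genes of at most 0.05 were called. The fit without the block was tested on simulated libraries that held no rat effect, and the fit with the block was not tested in this way. Values are not corrected for gene length, so levels of different genes are not compared. Because of the prior count, fold changes of scarce genes are understated. Same-numbered libraries deviated together across genes, with a correlation of 0.474 to 0.763 (median 0.628), and the study names 6 rats, so a fit with the rat as a block (replicate block) is given where it changes a call. Other alternatives were no trend, limma-voom, quantile normalization, scaling by total reads, log2(CPM + 1), a level filter and leaving out libraries or rats. The members, lists and motifs were chosen with earlier results of these data known. Values are given for members called in either fit and for the highest and lowest of each complex, per library for those called without the block and the most changed of each complex. The genes called among subunits and other factors, and the neighbours, were named after their values were seen, and the rule limited promoters to members that move together, so the promoter windows are a description added beside it. Intervals cover 95% confidence.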

Additional observations from a re-analysis of the deposited data

Results flagged for a closer look

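In 84 groups of 6 libraries (42 assembly factors in each group), the lowest or highest library stood apart by Dixon's criterion (the gap to the nearest other library as a share of the whole range) in 5, where chance gives about 1 in 20. Ndufaf6 stood at 1.98 log2 CPM in control replicate 2 (gap 0.626 of the range) and at 1.64 in silenced replicate 2 (gap 0.844), so the same rat was low in both groups. Uqcc2 stood at 4.46 in silenced replicate 2, with the others at 4.82 to 4.97. Cox11 stood at 4.33 in silenced replicate 5, with the others at 4.43 to 4.48. Sdhaf4 stood at 2.18 in silenced replicate 6, with the others at 2.97 to 3.21. Of the genes concerned, Sdhaf4 is the only one called in a fit on all libraries, and only with the block. Without rat 6 its blocked adjusted p was 0.129 (limma). The call was also lost without each of the other rats (0.0555 to 0.0939). The blocked difference was −0.34 to −0.31 in those fits and −0.22 without rat 6.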

How the results depend on the processing

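The directions of Cox18, Foxred1, Ttc19 and Ndufaf3 held in every alternative run that tested them, and their calls in all but those named here or beside their values. The replicate block, the fit with the rat as a block, raised the assembly factors called from 2 to 4 higher and from 2 to 5 lower, the nuclear subunits from 1 to 3 in each direction, the other assembly factors from 1 to 2 higher and from 0 to 3 lower, and all genes from 1494 to 2412 higher and from 638 to 2431 lower. Among genes at or above the median level, 14 of the 42 were left and 0 were called in either direction (0 of 68 nuclear subunits higher, 0 of 10 other factors higher, 485 of all genes higher and 498 lower), since the mean over all 12 libraries of each of the 4 called ones lies below that level. For Ttc19 and Ndufaf3 the lowered silenced values take part in this, because their control means (4.62 and 4.55 log2 CPM) are above the median control level of all genes (4.47). Scaling by total reads alone gave 1 lower assembly factor, 2 nuclear subunits higher and 0 lower, and 1755 genes higher and 294 lower, so that 85.7% of calls were higher instead of 70.1% (49.8% with the block and 49.3% at or above the median level). It moved the median of all genes from −0.036 to 0.035 and turned Acad9 (0.049), Cox14 (0.062), Cox15 (0.031), Lyrm7 (0.028), Tmem126b (0.047) and Uqcc2 (0.032). Quantile normalization gave 2 nuclear subunits higher and turned Coa7 (−0.037), Cox19 (−0.029), Ndufaf2 (−0.16), Nubpl (−0.57) and Sdhaf3 (−0.054), and limma-voom turned Cox14 (0.00049). Limma without trend called 0 nuclear subunits lower. Ndufaf7 was called without trend (adjusted p = 0.0348), with limma-voom (0.0481) and after quantile normalization (0.0345).

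Without each library in turn, 1 to 3 assembly factors were called higher (Cox10 joined without control replicate 2, adjusted p = 0.0377) and 1 to 2 lower (Ndufaf7 joined without control replicate 6, 0.0475), 1 to 2 nuclear subunits higher and 0 to 3 lower, 0 to 1 other factors lower, and 1283 to 1480 genes higher and 445 to 718 lower. The sign changed with single libraries for Acad9 (−0.066 to 0.023), Atpaf2 (−0.034 to 0.049), Coa7 (−0.020 to 0.072), Cox14 (−0.057 to 0.045), Cox16 (−0.018 to 0.11), Cox19 (−0.014 to 0.057), Lyrm7 (−0.071 to 0.0047), Nubpl (−0.038 to 0.35), Tmem126b (−0.077 to 0.032) and Uqcc2 (−0.12 to 0.036), none of them called.

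With the replicate block and each rat left out, 3 to 6 assembly factors were called higher (6 without rat 1, 4 without rat 2 or 4) and 1 to 3 lower (1 without rat 2 or 4), 2 to 5 nuclear subunits higher and 3 to 8 lower, and 2 other factors higher and 1 to 3 lower. All genes called lower numbered 2646, 1769, 2130, 1866, 1734 and 1844 without rats 1 to 6, and 2531 were higher without rat 1. In these fits signs turned for Acad9 (0.0086 without rat 4, 0.0055 without rat 5), Atpaf2 (−0.044 without rat 3, −0.0047 without rat 4), Coa6 (0.017 without rat 4), Coa7 (−0.0025 without rat 3, −0.057 without rat 4), Cox14 (0.092) and Uqcc2 (0.071) without rat 2, Cox16 (−0.0059) without rat 1, Cox19 (−0.018, −0.0061 and −0.013 without rats 2, 3 and 4) and Nubpl (−0.033) without rat 3. Without rat 1, Atpaf1 (adjusted p = 0.0167), Cox10 (0.0125) and Ndufaf1 (0.0396) joined the calls, and without rat 4, Uqcc1 (0.0408). Without rats 1 and 2, chosen after seeing the data, 4 assembly factors were higher and 1 lower (6 and 1 with the block), 2 nuclear subunits higher and 0 lower (6 and 4 with the block), and with the block 3 other factors higher and 1 lower and 2314 genes higher and 2196 lower. The cause of these shifts was not tested. Scarce factors such as Nubpl, with 7 reads in a library, are limited by depth.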
